A study of Homo sapiens with 2 samples.

Results

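LSD1 peaks that lie close together in rows were described here as domains. The peaks of the list were ordered by chromosome and midpoint, successive midpoints at most 12.5 kb apart were joined into a chain, and all peaks of chains with at least 5 peaks were kept. Members were thus chosen by the measured positions of the peaks, so their crowding is a description and not a finding. This rule gave 537 chains with 3806 of the 20110 peaks (18.9%, interval 18.4 to 19.5). The study had 1 chromatin immunoprecipitation (ChIP) library, made with an Abcam antibody to LSD1, and 1 input library. Both came from PC-3M-luc cells, a human prostate carcinoma line of the genotype labelled Control, grown in EMEM medium with serum and glutamine and with no treatment named. With 1 library for each arm, there is no replicate to check a value against, and p-values are not given. Intervals are exact 95% binomial intervals for shares and order-statistic intervals for medians. They cover counting error only, and peaks of 1 chain share a locus, so they are too narrow. Peaks lay over the start sites of all 4 epithelial genes checked, KRT8, KRT18, EPCAM and CDH1, and over none of the 3 prostate luminal genes KLK3, KLK2 and TMPRSS2. A peak list tells whether a gene carries a peak past the authors' threshold, not whether the gene is expressed.

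LSD1 (KDM1A) is an enzyme that takes methyl marks off histone H3, at lysine 4 when it bears a single mark or a pair of them. It acts within the CoREST and NuRD corepressor complexes and is found at active promoters and enhancers as well as at silenced genes. Rows of neighbouring binding sites over one locus are known for many chromatin regulators, at clusters of enhancers, at gene-dense stretches with many start sites, and along the bodies of single genes. All coordinates are those of hg19, and genes are those of GENCODE 44 mapped to this build.

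Sequences from 4 kinds of chain are printed as examples. The first and second sets were chosen for holding the element shown, so they do not measure how the DNA of chains differed. The first set comes from chains on chromosome 6 that held no protein-coding gene. It shows in capitals the B box, an element of genes transcribed by RNA polymerase III such as tRNA genes, searched as GGTTCGA followed by any 2 bases and CC, inside the highest-scoring peak that held it in 3 of the chains.
chr6:26327817-26327907 (plus strand, peak score 1175): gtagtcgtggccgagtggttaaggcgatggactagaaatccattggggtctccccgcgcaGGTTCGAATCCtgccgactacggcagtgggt
chr6:26553721-26553811 (plus strand, peak score 886): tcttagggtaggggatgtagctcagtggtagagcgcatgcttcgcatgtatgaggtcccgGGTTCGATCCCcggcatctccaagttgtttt
chr6:28763732-28763822 (minus strand, peak score 326): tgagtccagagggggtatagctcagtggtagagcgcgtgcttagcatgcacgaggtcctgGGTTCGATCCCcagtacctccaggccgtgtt

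The second set shows the AP-1 element TGACTCA, in capitals, in the highest-scoring peak that held it away from promoters in the chains over HMGA2 and TXNRD1, the most populated chains along single genes.
HMGA2, intron, chr12:66262260-66262360 (minus strand, peak score 302): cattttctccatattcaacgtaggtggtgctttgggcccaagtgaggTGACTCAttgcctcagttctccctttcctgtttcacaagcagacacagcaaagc
TXNRD1, beyond the gene end, chr12:104746081-104746181 (plus strand, peak score 1755): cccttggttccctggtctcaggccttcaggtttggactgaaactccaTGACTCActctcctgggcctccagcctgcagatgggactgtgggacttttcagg

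The third set gives the 200 bases before a canonical start site in a chain and those before an annotated alternative start site in a chain. Whether transcription starts at either site in these cells was not tested. The canonical transcript is the one that Ensembl chose to represent a gene, and an alternative start site belongs to another annotated transcript. Capitals mark GGGCGG, the GC box of SP and KLF factors. The TEX22 stretch held 73.5% G and C and 25 CpG dinucleotides, and the KMT2D stretch 48.5% and 1.
TEX22, canonical start, chr14:105864675-105864874 (plus strand, peak score 2316): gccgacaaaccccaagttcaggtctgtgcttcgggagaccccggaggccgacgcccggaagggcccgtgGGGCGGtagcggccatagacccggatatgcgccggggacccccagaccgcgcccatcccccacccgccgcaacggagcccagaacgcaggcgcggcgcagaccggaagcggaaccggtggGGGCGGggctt
KMT2D, alternative start, chr12:49442553-49442752 (minus strand, peak score 104): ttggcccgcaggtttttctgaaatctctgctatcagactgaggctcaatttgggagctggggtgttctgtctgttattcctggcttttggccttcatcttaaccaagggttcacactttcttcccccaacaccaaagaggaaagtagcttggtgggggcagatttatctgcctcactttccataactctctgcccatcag

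The fourth set is of microRNAs made from transcripts that chains covered, with mature sequences from RefSeq (GRCh38.p14) and the seed, bases 2 to 8, in capitals. The let-7 pair shares the seed GAGGUAG, and miR-221 and miR-222 share GCUACAU.
hsa-let-7a-5p: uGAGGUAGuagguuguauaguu
hsa-let-7b-5p: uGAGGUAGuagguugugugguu
hsa-miR-221-3p: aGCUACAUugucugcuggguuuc
hsa-miR-222-3p: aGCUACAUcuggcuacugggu
hsa-miR-31-5p: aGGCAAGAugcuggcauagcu

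Most chains were short, and a few were very long. A chain had a median of 6 peaks and a median span of 30.1 kb, from 8.98 to 147.1 kb. Chains of 5 or 6 peaks made up 318 of the 537 (59.2%), and 76 chains with at least 10 peaks held 1008 peaks. The chains spanned 18.7 Mb in all, of which 9.61 Mb lay under peaks, 22.9% of the bases under all peaks. Peaks covered a median of 50.6% of a chain's span, from 12.8% to 99.5%. The gap between the edges of neighbouring peaks had a median of 1701 bp, and 1275 of the 3269 gaps (39.0%) were under 1000 bp. In chains of 2 to 4 peaks the median gap was 2363 bp, and 32.2% were under 1000 bp. The number of chains turns on the joining rule. It was 119 with a joining distance of 5000 bp and 213 when peaks less than 1000 bp apart were first merged. It was 796 with a joining distance of 25000 bp and 603 with distances between edges. It was 191 with peaks of a score of at least 100 and 59 with peaks at or above the median score.

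Chains just inside and just outside the rule were alike in most values. The largest distance joined was 12494 bp and the smallest left unjoined at a chain's end was 12501 bp. There were 203 chains of exactly 5 peaks and 319 of exactly 4. Their median spans were 23149 and 18418 bp, and the medians of their median scores were 165.9 and 191.8. At promoters lay 43.5% of the peaks of chains of exactly 5 and 42.7% of those of chains of exactly 4.

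By their midpoints, peaks in chains lay less often at canonical start sites, and more often inside genes, than peaks that stood alone. Within 1 kb of a canonical transcription start site (TSS) of a protein-coding gene lay 867 of the 3806 chain peaks (22.8%, interval 21.5 to 24.1). The same held for 33.1% of peaks in chains of 2 to 4, 61.0% of lone peaks and 44.1% of all peaks. With any annotated TSS of a protein-coding gene the shares were 42.4%, 45.6% and 67.5%, and 55.1% over all peaks. Exons held 13.3% of chain peaks against 3.0% of lone peaks and 7.48% of all peaks. Introns held 24.3% against 11.5% and 17.2%. Intergenic sequence held 20.0% against 18.0% and 20.2%. The promoter difference ended with a wider window, since 74.4% of chain peaks and 74.6% of lone peaks lay within 5 kb of a TSS. A wide peak can cover a start site while its midpoint lies more than 1 kb away. The 6831 bp peak over the canonical start of KMT2D, for example, counted as intron. Median widths were 1850 bp in chains, 1648 bp in chains of 2 to 4 and 1601.5 bp for lone peaks. The part of width in these shares was not tested.

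**Figure D1:**
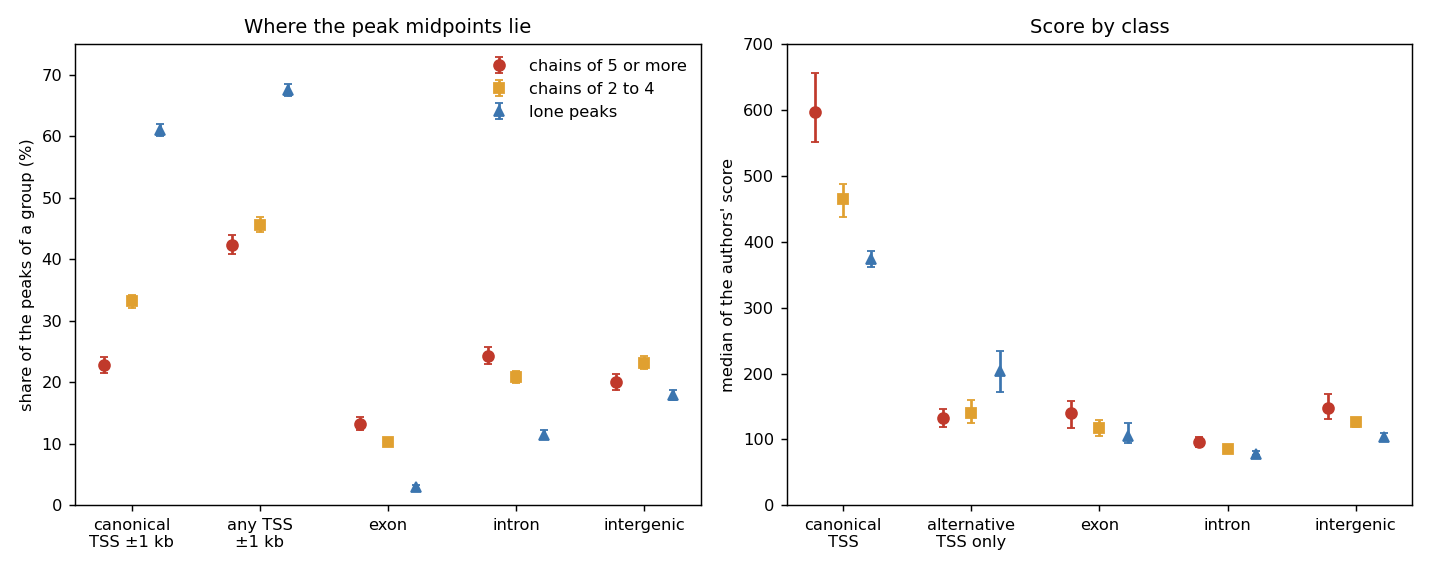
Left, share of peaks in percent by the place of the midpoint, for chains of 5 or more peaks, chains of 2 to 4 and lone peaks, with exact 95% intervals. Right, median of the authors' score by class with order-statistic 95% intervals. Chain peaks are lowest at canonical TSSs in share (22.8%) and highest there in median score (597).

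Where a chain did include a canonical promoter, the peak there had a higher score than elsewhere. The score is the authors' value for each peak, with a lowest value near 50 and a repeated value of 3100 that may be a ceiling. Its median was 597 (interval 551 to 655) at the 867 canonical promoters in chains, 465 in chains of 2 to 4 and 373 for lone peaks. At the 746 chain peaks with an alternative TSS only it was 132 (interval 119 to 146), against 140 and 204. Away from promoters it was 118.9 (interval 111.8 to 127.1) in chains, 103.8 in chains of 2 to 4 and 92.5 in lone peaks. At canonical promoters and away from promoters the 3 intervals did not overlap, and chains of 5 or more were highest. At alternative start sites they were below lone peaks, and their interval overlapped that of chains of 2 to 4. Peak width moved with the score at canonical promoters, with medians of 2364, 1957 and 1743 bp. Its part in the difference was not tested. The highest-scoring peak of a chain lay at a promoter in 346 chains (64.4%), and 79 chain peaks (2.08%) had a score of at least 3100, against 1.12% of all peaks.

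The DNA under chain promoters was less rich in CpG than under lone promoters. The median ratio of observed to expected CpG in the 200 bp around the midpoint was 0.736 at canonical promoters in chains, 0.788 in chains of 2 to 4 and 0.843 for lone peaks. At alternative promoters only it was 0.292, 0.358 and 0.593, which is the contrast that the TEX22 and KMT2D stretches show. The GC box GGGCGG, searched on both strands, was in 33.9% of promoter windows in chains (interval 31.6 to 36.3). It was in 44.4% in chains of 2 to 4, 53.9% of those of lone peaks and 48.2% of all promoter windows. The ETS element CCGGAAG, on both strands, was in 5.95%, 7.36% and 9.80%, and in 8.54% of all. These promoter windows pool canonical and alternative starts. Peaks at alternative starts only gave 746 of 1613 windows in chains and 873 of 3192 in chains of 2 to 4. For lone peaks they gave 607 of 6284. The motif shares were not split by type of start, and the part of this mix in them was not tested.

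Away from promoters, the AP-1 element was less frequent in chains. AP-1 dimers of FOS and JUN proteins bind TGACTCA at enhancers. Searched on both strands in the 200 bp around the midpoint, it was in 112 of 2193 chain peaks away from promoters (5.11%, interval 4.22 to 6.11). It was in 7.02% in chains of 2 to 4, in 9.26% of lone peaks and in 7.31% of all peaks away from promoters. Counted over whole peaks, it occurred 0.215, 0.258 and 0.340 times per kb. The order was the same in both counts. At promoters, again with canonical and alternative starts pooled, it was the other way. The shares there were 2.54% in chains, 2.13% in chains of 2 to 4 and 1.53% in lone peaks. The share of whole peaks of any class with the element was 32.9%, 30.8% and 26.04%, and chain peaks were also wider, with medians of 1850, 1648 and 1601.5 bp.

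The chains fell into kinds by what they covered. At most 1 in 5 peaks lay at a promoter in 148 chains (27.6%, interval 23.8 to 31.5), and 47 of these had none. At least 4 in 5 lay at promoters in 50 chains (9.31%). All midpoints lay inside a single protein-coding gene in 51 chains (9.50%), and 22 chains (4.10%) overlapped no protein-coding gene. By canonical start sites, 61 chains held 0, 147 held 1, 192 held 2 or 3 and 137 held 4 or more. The median of the chains' median scores was 111.1, 130.3, 181.1 and 276.2 in this order. The median spans in this order were 26.9, 26.05, 31.0 and 40.6 kb.

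In all, 1359 protein-coding genes had their canonical TSS inside a chain, 6.84% of 19881, a count that ranged from 135 to 582 under the stricter rules of joining, score or merging. Of these, 1286 (94.6%) lay under a peak of the chain, against 54.2% of canonical start sites genome-wide that lay under any peak. As chains are built from close peaks, this contrast is set by the rule. Chains held 7.26 canonical start sites per 100 kb of span, and chains of 2 to 4 peaks held 10.2. Chains overlapped 1641 genes, 8.14% of 20163.

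The chain with the most peaks lay along HMGA2, which encodes a chromatin protein of embryonic and tumour cells that bends AT-rich DNA. It had 26 peaks over 147.1 kb (chr12:66216224-66363356), of which 96.4 kb lay under peaks, and it overlapped no other protein-coding gene. Scores ran from 51.2 to 3100 with a median of 190.3, and 22 midpoints lay in introns. The first peak, over the start site, scored 3100 and the next, 974 bp further on, scored 2257. The last peak, over the gene end, scored 1709. None of the 23 peaks between the second and the last reached 600, and the highest of them scored 576. The pattern was thus of high peaks at both ends with a row of low ones between.

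TXNRD1, which encodes the cytosolic thioredoxin reductase of redox defence, carried 20 peaks over 85.8 kb (chr12:104665513-104751276). The canonical start of TXNRD1 lay outside the chain. Of the 20 peaks, 2 scored over 1000. One, with a score of 1573 and a width of 5201 bp, lay 509 bp from an alternative start. The other, with a score of 1755 and a width of 7194 bp, began at the gene end and held the AP-1 match shown above. The other 18 scored from 50.8 to 234.0.

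Other chains with many peaks ran over several genes. A chain on chromosome 14 had 22 peaks over 126.7 kb with 6 canonical start sites, among them TEX22, CRIP1, CRIP2 and MTA1, a subunit of the NuRD complex. A chain on chromosome 19 had 21 peaks over 92.6 kb and 12 start sites, from MAN2B1 to BEST2, with TNPO2, an importin, among them. A chain on chromosome 16 had 20 peaks over 97.8 kb and 12 start sites, from NDUFB10 to TSC2, including RPS2 of the small ribosomal subunit. It reached a score of 3100 and 13 of its peaks lay at promoters. Another on chromosome 16 had 17 peaks over 88.0 kb and 11 start sites, among them STUB1, a ubiquitin ligase of chaperones. The chains with HGS (chromosome 17) and PTPRH (chromosome 19) had 18 peaks each, with 7 and 8 start sites. The chain with RAD9A (chromosome 11) had 17 peaks and 10 start sites.

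The chain over LAMA5, the alpha chain of basement membrane laminins, was the most densely covered of the 12 chains with the most peaks. Peaks covered 87.8% of its 98.2 kb on chromosome 20. It had 17 peaks, of which 3 were wider than 10 kb, and 3 start sites, those of ADRM1, LAMA5 and RPS21. Among all chains, the highest median scores belonged to 3 chains of 5 or 6 peaks. They were 1839 in the chain with AKT1S1 and PTOV1 and 1644 in that with MZF1 and TRIM28, a corepressor of zinc finger proteins, both on chromosome 19, and 1547 in that with EXOSC4 on chromosome 8.

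**Figure D2:**
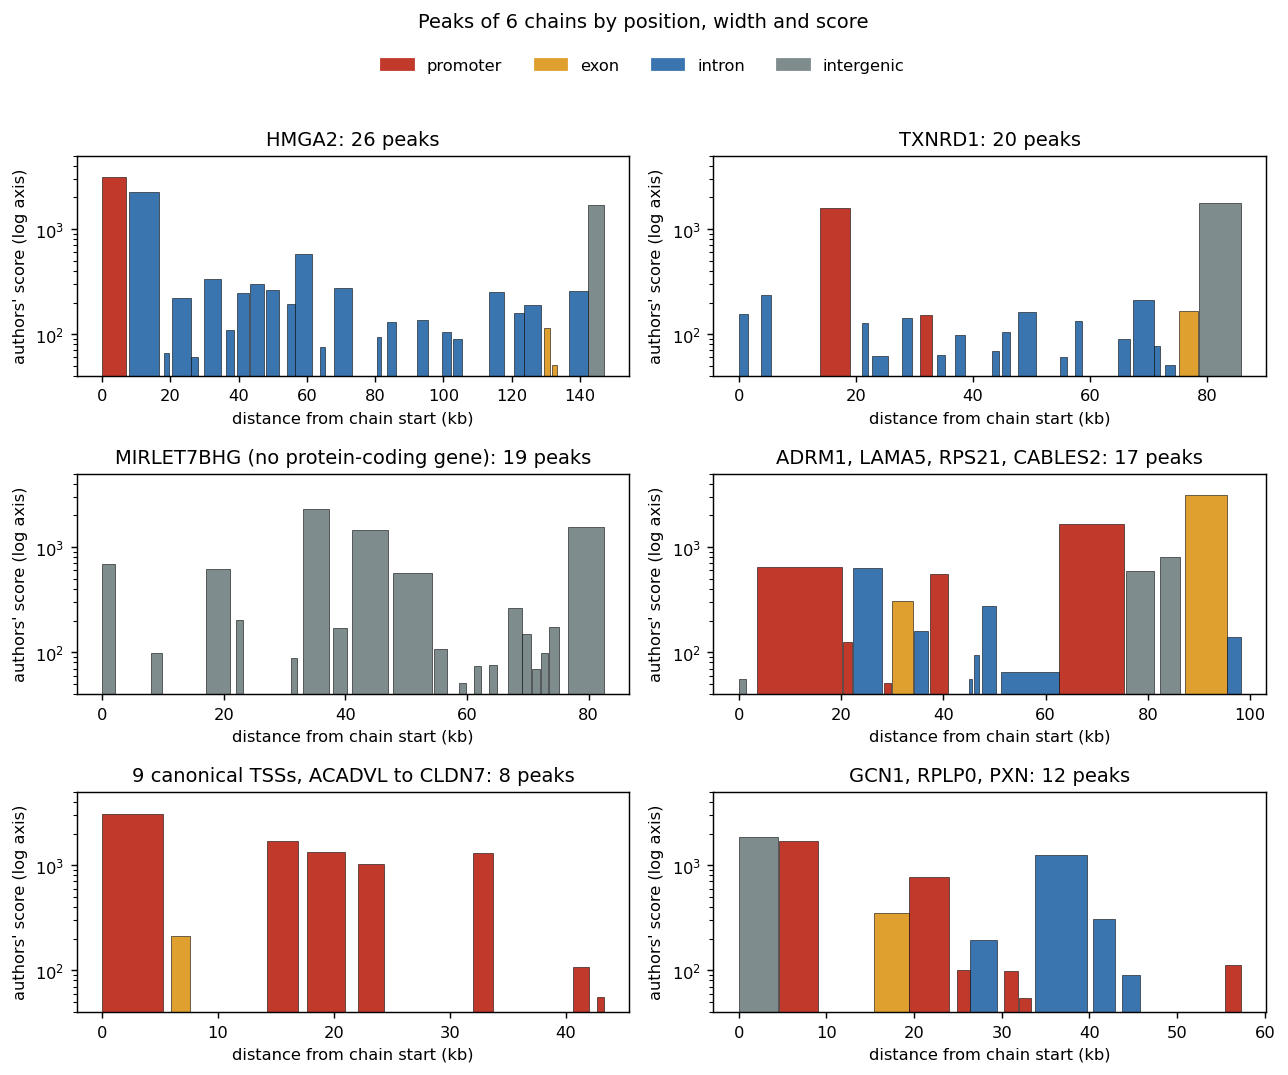
Maps of 6 chains, each bar 1 peak, with the distance from the chain's start in kb on the x axis, the peak's width as the bar's width, the authors' score on a log axis and the colour giving the place of the midpoint. The HMGA2 chain has high bars at both ends and the TXNRD1 chain at an alternative start and at the gene end, with lower bars between, while 5 of the 8 bars of the chain from ACADVL to CLDN7 are promoter peaks with scores over 1000.

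Among the 50 promoter-rich chains, a high share at promoters went with high scores in some and low scores in others. The chain from ACADVL to CLDN7, a tight junction claudin, held 9 canonical start sites in 43.3 kb of chromosome 17. Of its 8 peaks, 7 lay at promoters, 5 scored over 1000 and its median score was 1157. The chain over KMT2D, a histone H3 lysine 4 methyltransferase, had 8 of 10 peaks at promoters, and its median score was 87.9. It held 4 canonical start sites, and its 10 peaks scored from 50.3 to 2293. Of its 9 midpoints inside KMT2D, 7 lay at promoters, but only 1 of these lay within 1 kb of a canonical start site. That peak, with the score of 2293, covered the end of KMT2D, and the canonical start near it belongs to another gene. The peak over the canonical start of KMT2D scored 771 and counted as intron by its midpoint. The chain over the HOXA cluster, from HOXA3 to HOXA11, had 6 of 7 peaks at promoters and a median score of 403. The chains with BRAT1 (429) and with TYMS and ENOSF1 (150.2) had 6 of 7 peaks each at promoters.

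The chains inside a single gene were mostly made of low peaks. The median of their median scores was 109.0. AARS1, the alanyl-tRNA synthetase, held 16 peaks in 39.4 kb. The peak over the end of AARS1 scored 3100, that over its start 1927, and the 14 between from 54.7 to 288.4. The start of a neighbour, EXOSC6, lay under the same peak as the end of AARS1, so AARS1 is not in the counts of gene ends below. IARS1, the isoleucyl-tRNA synthetase, held 14 peaks of which the highest scored 233.5, and its start site, under a peak, lay outside the chain. ALDH1A3, an enzyme of retinoic acid synthesis, had 14 peaks with a highest score of 2345. That highest peak lay over the end of ALDH1A3 and also over the start of a neighbour, LRRK1. ALDH1A3 is therefore not in the counts of gene ends either. LMNA, which encodes the nuclear lamins A and C, had 8 peaks. DCBLD2, a receptor-like membrane protein, carried a chain with 16 peaks in 65.2 kb and a separate chain over its start, with 15 and 8 midpoints in the gene. NIBAN2 carried 15 peaks in 84.9 kb. AGO2 on chromosome 8 carried a chain of 10 peaks with a highest score of 396.4. The start site of AGO2, under a peak, lay outside this chain, and another chain also overlapped the gene.

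Synthetases of the same class as AARS1 and IARS1 were then counted, in a list drawn up after these values were seen. Of 20 genes for cytosolic aminoacyl-tRNA synthetases, which load tRNAs with amino acids, 9 were overlapped by a chain, against 8.14% of all genes. At least 5 midpoints of 1 chain lay in AARS1, IARS1, MARS1, VARS1 and YARS1. As the list followed from its members, the count is a description.

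In gene bodies the peaks reached from the start to the end of the gene. In 165 pairs of a gene and a chain, the gene held at least 5 midpoints of the chain. The pairs held 1079 midpoints, 1009 of them distinct, since overlapping genes share some. When each gene was divided into 3 equal parts, 324 of these midpoints (30.03%) lay in the first part, 334 (31.0%) in the middle and 421 (39.0%) in the last. Introns held 49.3% and exons 16.03%. A canonical start site lay within 1 kb of 8.62%, while 34.7% lay within 1 kb of any annotated start site.

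Gene ends were then examined, a choice made after these values were seen. To keep apart the start of a neighbour, 103 of the pairs, with 100 genes, were used whose canonical transcript ended at least 5 kb from any TSS of another protein-coding gene. They lay in 98 chains, and a gene that holds 5 midpoints of each of 2 chains counts for each. CSNK1D and SLC16A3 shared the same end peak, which counts for each of them here and below. A chain peak covered the last base of the transcript in 56 of them (54.4%, interval 44.3 to 64.2), against 7.82% of 14859 genes with such an end that had any peak there. The pairs were chosen for having many peaks, so this contrast is set by the choice. Points inside the same genes give a nearer comparison. A chain peak covered the point at 25% of the transcript in 34 pairs (33.0%), that at 50% in 30 (29.1%) and that at 75% in 36 (35.0%). The end was covered more often than these 3 points and less often than the canonical start, which lay under a chain peak in 71 of the 103.

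The peaks over ends also had the higher scores. In 53 pairs with a peak over the end and peaks in the interior, meaning more than 1 kb from both ends, the end peak scored above every interior peak in 37 (69.8%, interval 55.7 to 81.7). The median end score was 821 and the median over pairs of the median interior score was 93.0. The peak covering the point at 25%, 50% or 75% scored above all other interior peaks in 32.1%, 37.9% and 40.6% of pairs, and the medians of these peaks were 153, 181 and 139. Width moved with the score. The median width was 4374 bp at the end and 1577 bp in the interior, and the end peak was wider than every interior peak in 37 pairs. A wide peak is more likely to cover any given point, and its part in the difference was not tested. In 27 of the 103 pairs a start site of a gene of another type lay within 5 kb of the end. In the remaining 76, a peak covered the end in 38 (50%), and it was above all interior peaks in 25 of 35.

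In 36 genes both the start and the end lay under a chain peak and interior peaks were present. They included CSNK1D and SLC16A3 with their shared end peak, so the ends are not all separate observations. The median scores were 991.5 at the start, 89.1 in the interior and 875 at the end. The start exceeded every interior peak in 34 of the 36 genes, and both did in 25. The end exceeded the start in 9.

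**Figure D3:**
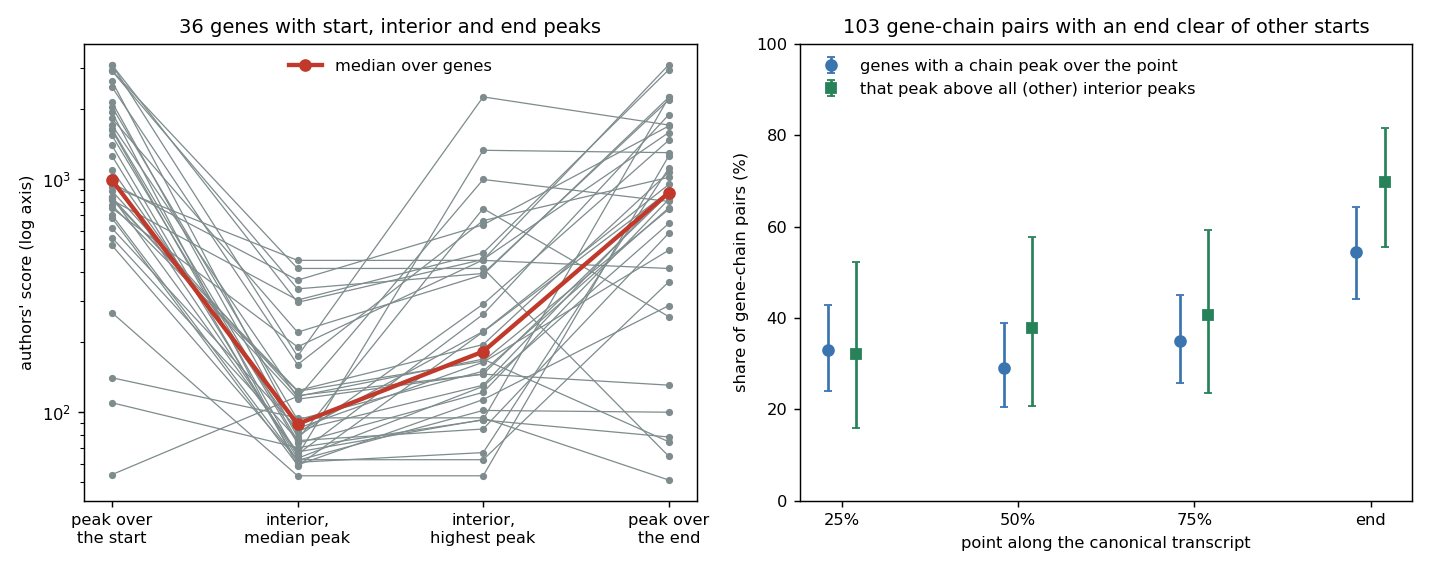
Left, the authors' score on a log axis for the peak over the start, the median and the highest interior peak and the peak over the end, 1 grey line for each of 36 genes and the median in red. Right, for 103 pairs of a gene and a chain, the share with a chain peak over points along the transcript, and the share in which that peak scored above the interior peaks, with exact 95% intervals. The median line falls from 991.5 at the start to 89.1 and stands at 875 at the end, and the end is covered in 54.4% of pairs against 29.1 to 35.0% for the inner points.

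Some of these genes with many interior peaks, chosen after the values were seen, show the row peak by peak. In UPP1, the uridine phosphorylase, the peak over the start scored 819. Next came 6 interior peaks with scores of 195.4, 118.05, 102.1, 52.7, 129.8 and 136.8, each under 2000 bp wide, and an end peak of 2087 bp with a score of 1072. In NIBAN2, the start scored 616, the 9 interior peaks from 50.7 to 164.0, and the end 496. In CLPTM1L, the start scored 682, the 7 interior peaks up to 113.4 and the end 287. In ONECUT3, a homeobox gene, the end scored 3100 and the start 752, with 8 interior peaks up to 451. DHRS3, a retinal reductase, departed from this pattern. An interior peak of DHRS3, 6807 bp wide and with a score of 998, exceeded the end peak (803) but not the start peak (1708). HMGA2 also did, through its second peak.

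Further genes among the 36, also chosen after their values were seen, are given by their scores. The scores at the start, of the highest interior peak and at the end were 2489, 665 and 1019 in FASN, the fatty acid synthase. They were 2047, 150.1 and 754 in SESN2, a stress-induced sestrin. They were 1941, 221.5 and 886 in PDIA4 and 1646, 84.8 and 587 in HYOU1, both chaperones of the endoplasmic reticulum. In YARS1, the tyrosyl-tRNA synthetase, they were 1021, 263.4 and 1892. In these 5 genes both ends stood above the interior. In GPRC5C the end scored 64.7 and the interior peak 414.3, so the end was the lower.

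**Figure D4:**
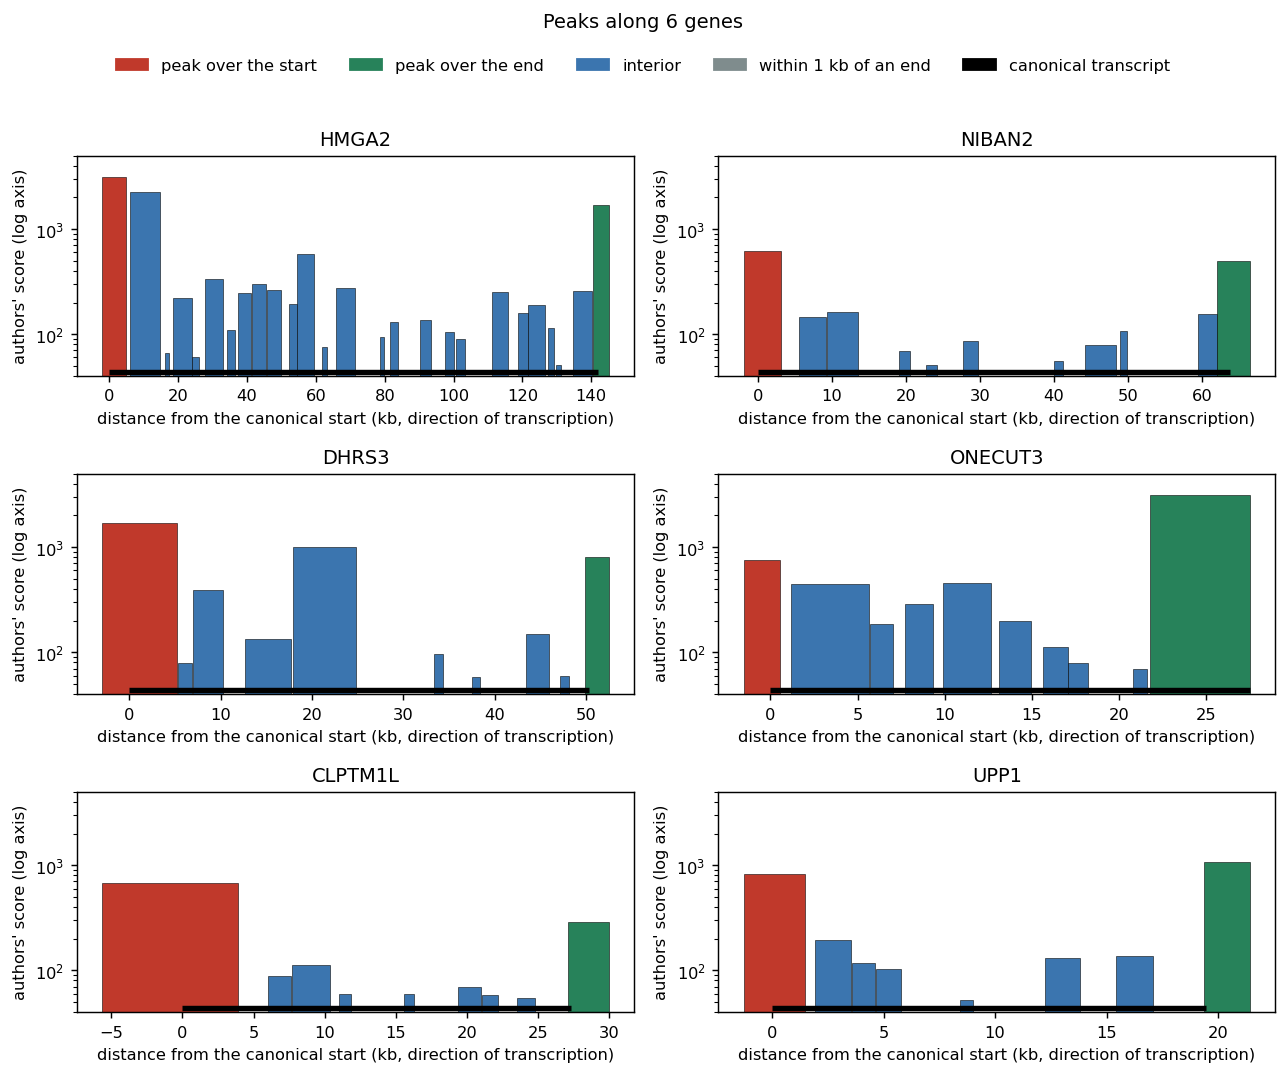
Peaks along 6 genes in the direction of transcription, with the distance from the canonical start in kb on the x axis, the authors' score on a log axis and each peak's width as the bar's width. NIBAN2, CLPTM1L, ONECUT3 and UPP1 have their 2 highest peaks at the start and the end, while an interior peak of DHRS3 (998) and of HMGA2 (2257) exceeds the end peak.

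The 22 chains without a protein-coding gene, set apart after their values were seen, lay mostly over genes of other types. Of the 22, 20 overlapped such genes, among them long non-coding RNAs, small RNAs and pseudogenes, and 2 overlapped no annotated gene. The largest lay along MIRLET7BHG, the host transcript of let-7 microRNAs, with 19 peaks over 82.6 kb of chromosome 22 (46431339 to 46513908) and scores from 51.2 to 2316. Its last peak, 6016 bp wide with a score of 1538, covered the hairpins of let-7a-3 and let-7b, whose shared seed is shown above. MIR222HG, the host of miR-221 and miR-222 on the X chromosome, carried 5 peaks with a median score of 61.5 and a highest of 833. The nearest chain peak was 1151 bp from the miR-221 hairpin and 1987 bp from that of miR-222. MIR31HG carried 6 peaks with a highest score of 205.6, and the nearest was 2701 bp from miR-31. MIR17HG, the host of the miR-17 to miR-92a cluster, carried 5 peaks in 14.4 kb with a highest score of 1475. The gene set used listed no microRNA gene in the MIR17HG chain, so the hairpins of that cluster were not placed against its peaks. The other hosts differed, with a high peak over let-7 and no chain peak over the hairpins of miR-221, miR-222 and miR-31.

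Among the long non-coding RNA chains, that with MALAT1, an abundant nuclear RNA, had 7 peaks in 39.6 kb of chromosome 11, a median score of 595 and a highest of 3100. LINC00963 had 7 peaks that covered 91.0% of 32.9 kb, with a median score of 1086. SNHG17, a host of small nucleolar RNAs, had 5 peaks that covered 91.8% of 20.1 kb. LINC-PINT had 9 peaks in 54.3 kb with a median score of 111.1.

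Of the 22, 6 chains lay in the extended HLA region of chromosome 6, between histone, butyrophilin and TRIM genes. They had 36 peaks of small width, with a median of 959.5 bp, and scores from 50.2 to 1370 with a median of 255.4. The B box was present in 24 of the 36, in whole peaks on both strands, against 2.05% of all peaks and 109 of the 3806 chain peaks (2.86%). The sequences printed first come from 3 of these chains. The GENCODE gene set used holds no tRNA genes, and RefSeq (GRCh38.p14) was used for gene order only. Between the coding neighbours of the chains it lists 13 tRNA genes (H4C8 to BTN3A2), 9 (HMGN4 to ABT1), 33 (ZNF184 to H2BC13), 26 (SCAND3 to TRIM27, with 2 of the chains) and 9 (TRIM27 to ZNF311). In the same stretch, 4 chains held 27 canonical start sites of histone genes, of the 51 such genes on chromosome 6, against 6.84% of all genes. These 4 had 27 peaks with a median width of 1481 bp and a median score of 431.2, and 2 of the 27 held a B box. The element and the window were chosen after the chains were seen.

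The lists of genes for prostate cancer biology were covered unevenly. A canonical start site lay inside a chain for 6.84% of all genes. The share was 8 of 25 (32.0%) among cytosolic ribosomal protein genes, which included RPLP0, RPLP2, RPS2, RPS3 and RPS15. It was 7 of 22 (31.8%) among AP-1 and immediate early genes, namely FOSL1, JUNB, JUND, IER2, MAFG, MAFK and ZFP36. It was 4 of 16 (25%) among S100 and annexin genes, with S100A13, S100A14, S100A16 and ANXA2, of which the 3 S100 genes shared 1 chain. It was 6 of 32 (18.8%) among genes of the actin cytoskeleton, with CFL1, which severs filaments, FLNA, CNN2, RHOA, LASP1 and PDLIM7. CFL1 and FOSL1 lay in the same chain of 13 peaks. Members of a list that share a chain are not separate observations.

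The remaining lists were nearer to the share of all genes. They held 2 of 12 ERK feedback genes (DUSP5, SPRED3), 6 of 39 HOX genes, of which 5 lay in the HOXA chain, and 2 of 15 KLF and SP genes (KLF3, KLF16). They held 3 of 24 genes of glycolysis and hypoxia (ALDOA, PGAM1, SLC16A3) and 3 of 26 epithelial junction and keratin genes (CLDN4, CLDN7, JUP). They held 2 of 28 genes of the epithelial to mesenchymal transition (ESRP2, TIMP1) and 2 of 27 EGFR ligand and growth factor receptor genes (VEGFA, EPHA2). They held 1 of 14 prostate luminal genes (HOXB13) and 0 of 16 Hippo genes. Among 25 genes of LSD1 complexes, CTBP1, MTA1 and MTA2 had the start inside a chain, and GSE1 and GATAD2A were overlapped away from it.

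Of 34 focal adhesion and integrin genes, 4 had the start site inside a chain, namely TLN1, ZYX, BCAR1 and ITGB4, and PXN and SRC were overlapped away from it. PXN encodes paxillin, a scaffold of focal adhesions. Its chain had 12 peaks over 57.3 kb (chr12:120631469-120688722) with GCN1 and RPLP0. Scores ran from 54.04 to 1858. The canonical start of PXN lay beyond the chain, under a peak outside it, and 10 midpoints of the chain lay in PXN. The highest of the 10 scored 1252, in an intron. SRC, the tyrosine kinase, had a chain with a peak of 1216 over its end and 5 interior peaks up to 230.4.

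Chains were unevenly spread over the chromosomes. On chromosome 19, 667 of 1695 peaks (39.4%, interval 37.02 to 41.7) lay in 87 chains. The share was 32.7% on chromosome 16 and 27.6% on chromosome 17, and 3.92% (10 of 255) on chromosome 13. On chromosome 8 it was 9.59%, with 66 peaks in 11 chains. The number of chains per 100 protein-coding genes was 5.88 on chromosome 19, 5.34 on chromosome 16 and 0.621 on chromosome 13.

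**Figure D5:**
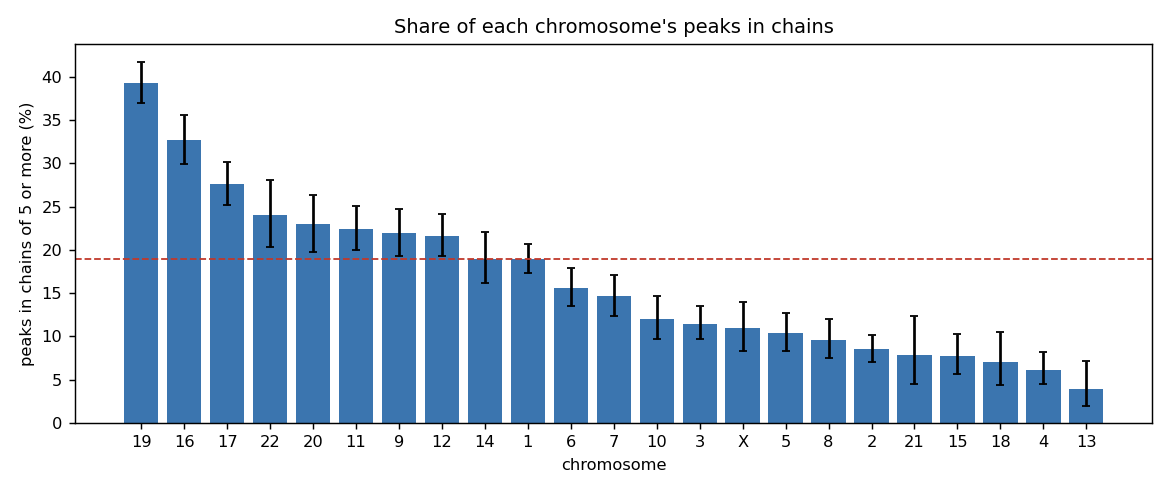
Share of each chromosome's peaks that lay in chains of 5 or more, in percent, with exact 95% intervals, in decreasing order, without the Y chromosome, and the share over these chromosomes as a dashed line. Chromosome 19 stands highest (39.4%) and chromosome 13 lowest (3.92%).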

How the data were processed

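Per the labels' protocols, reads of the LSD1 ChIP and the input came from a HiSeq machine and were aligned with bowtie 2 to hg19. The submitters' processing notes name Bowtie2 and MACS 1.41 and also the build mm10, which was not used. The authors deposited 1 list of peaks with a position and a score per peak. No source used here states the score's scale, so the authors' score only ranked, filtered and described peaks. Settings and read numbers are not given in the sources used here. The depth is therefore unknown.

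Each peak was placed by its midpoint as promoter (within 1 kb of a protein-coding TSS), exon, intron or intergenic. The annotation holds 146295 distinct start positions for 20163 protein-coding genes. Promoter thus means close to an annotated start, and the use of these starts in the cells was not tested. Motifs were searched on both strands of hg19. The members, gene lists and rules were chosen with earlier results of these data known. The text names the 12 chains with the most peaks, the 5 with most peaks among promoter-poor, promoter-rich and single-gene chains, the 3 widest, longest and highest by median score, the chain over PXN, and up to 4 members of a list inside chains. Genes named beyond these, the non-coding chains, the B box, the synthetases and the gene-end values were chosen after values were seen. Some genes and sequences under these rules are not reported here. No random placement or set test was used. The code was tested on simulated data, where 300 of 300 planted chains, a planted promoter share of 30% and a motif planted in 10% of sequences were recovered. Tools were pysam 0.24.0, scipy 1.17.1, pandas 2.3.3, numpy 2.4.6 and matplotlib 3.10.9 under Python 3.11.15.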

Additional observations from a re-analysis of the deposited data

How the results depend on the processing

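No paired analysis was possible because the study has a single ChIP library and a single input library. The number of chains (537) was 119 with joining at 5000 bp, 191 with scores of at least 100, 59 with scores at or above the median and 213 after merging peaks under 1000 bp apart. In the same order the share of peaks in chains (18.9%) was 3.48%, 8.55%, 3.37% and 7.32%. It was 22.4% with distances between edges and 17.8% without the widest 1%. The promoter share (42.4%) was 38.6% at 5000 bp, 48.7% with scores of at least 100, 74.4% within 5 kb, 22.8% with canonical transcripts and 48.4% with genes of every biotype. The share of promoter-poor chains (27.6%) was 34.5% at 5000 bp, 8.19% within 5 kb and 57.9% with canonical transcripts. The median score away from promoters was 99.1 at 5000 bp. The AP-1 share (5.11%) was 3.57% with scores of at least 100 and 11.6% in 500 bp. Canonical start sites inside chains (1359) were 135 at 5000 bp, 582 with scores of at least 100 and 580 after merging. Of the 39 alternatives, 15 stayed within 1.5 times a count or inside the interval of a share or median. Chain peaks kept a lower AP-1 share than lone peaks under each alternative where both were computed, from 3.57% against 6.87% with scores of at least 100 to 5.94% against 9.48% within 5 kb. The share of pairs whose end peak was above the interior was 69.8% by width, 67.9% with ends 2 kb from other starts and 71.8% with scores of at least 100, alternatives chosen after seeing the data. The depth of the libraries is unknown, so a gap in a row of peaks is not shown to lack LSD1.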
